A study of Mus musculus with 8 samples.

Results

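The genes described here are 41 ligand, receptor, antagonist, feedback and target genes of the TGF-beta, BMP and activin pathways, taken from a list of symbols and matched to the gene table of 8 RNA-seq samples of malignant mesothelioma from mice, a cancer that arises in the layer lining chest or abdomen. All 41 were found among the 52636 genes counted, and all 41 passed the filter on low counts. The 2 samples called double here carried knockouts of Nf2 (the gene of the tumour suppressor merlin) and Cdkn2a (the gene of the cell cycle inhibitors p16 and p19Arf). The 6 samples called triple carried both of these and a knockout of Bap1, a nuclear deubiquitinase that acts on histone H2A, so that loss of Nf2 and Cdkn2a was shared by all 8 samples and Bap1 was the difference between the groups. The series title gives conditional mouse models; no label used here names the driver of recombination or the strain, age and sex of the mice. The labels give malignant mesothelioma as the tissue and also a serum-containing culture medium with insulin, and do not say whether samples came from separate mice, so each p-value rests on a spread that may be technical.

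Most ligands of this superfamily bind a pair of type I and type II receptor kinases. TGF-beta and activin receptors phosphorylate Smad2 and Smad3, BMP receptors phosphorylate Smad1, Smad5 and Smad9, and these enter the nucleus with Smad4. Secreted antagonists hold ligands away from receptors, and the inhibitory Smads and the Id genes are induced by the signal. In mesothelial cells and fibroblasts TGF-beta is known for inducing matrix genes such as Postn and Tgfbi.

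Between 26847202 and 32082535 reads were counted per sample. Levels are given in CPM, counts relative to the sample total, scaled with trimmed mean of M-values (TMM) factors, and a gene is called where edgeR's quasi-likelihood test gave an adjusted p under 0.05 over all 17709 genes tested. The deleted genes kept reads in all samples and were not called: Bap1 stood at 105.5 and 71.2 CPM in the double group and 43.1 to 72.1 CPM in the triple samples (adjusted p = 0.122), Nf2 had an adjusted p of 0.103 and Cdkn2a of 0.306. Reads outside the deleted exons are included in these counts, so they do not check the labels. Double sample 1 stood apart from the other 7 samples. Its correlation with double sample 2 in log2 CPM over all genes was 0.892 and with the triple samples 0.804 to 0.878, 4.04% of its counts came from mitochondrial genes against 1.16% to 2.33% elsewhere, and its TMM factor was 0.771 against 0.994 to 1.10. Of the mesothelial markers, Msln and Pdpn were present in every sample, and Calb2 had a CPM of 0 in most samples. Wt1, Upk3b, Lrrn4 and Krt19 were at 33.2, 173, 75.4 and 52.9 CPM in triple sample 3. Elsewhere they reached at most 1.76, 0.365, 8.30 and 0.734 CPM, with Wt1 at 0 in double sample 1. Krt7 was at 70.0 CPM in triple sample 3 and at most 5.48 CPM elsewhere, while Krt8 and Krt18 were highest in double sample 2.

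For 37 of the 41 genes the test did not pass its threshold, and 4 genes were called. Bmp6, a BMP ligand, and Gdf6, a related ligand of joint and skeletal development, fell in the triple samples, while Fstl1, a secreted follistatin-related glycoprotein, and Postn, the matrix protein periostin, rose. These 4 of 41 make 9.76%, against 8.35% of all genes tested, and the 2 higher and 2 lower genes stand beside 2.94% and 5.41% of all genes. An unadjusted p under 0.05 was found for 13 of 41 (31.7%, against 27.9% of all genes), and 10 of 41 had groups that did not overlap (24.4%, against 24.1%). Fold changes were positive for 19 genes and negative for 22, with a median of -0.07 on the log2 scale beside 0.02 over all genes. Double sample 1 was the highest of the 8 for 14 of 41 (34.1%, against 29.7% of all genes) and the lowest for 9 of 41 (22%, against 32.4%). The calls depended on which double samples entered: 0 of 41 were called by edgeR without double sample 1, where 1.69% of all genes were called and 8 of 41 had an unadjusted p under 0.05, and 10 of 41 without double sample 2, where 29.5% of all genes were called. Leaving out triple sample 1, 4, 5 or 6 left 1 of 41 called, Bmp6, and leaving out triple sample 2 or 3 left 2 and 3. With the code of the description as a term, 1 of 41 was called (5.43% of all genes), with DESeq2 10 of 40 with an adjusted p (19.2%), within code SN930, which holds double sample 1 and 3 triple samples, 6 of 41 (11.8%), and within the other codes by edgeR 0 of 41 (0.00552%), where 6 of 41 had an unadjusted p under 0.05.

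**Figure D1:**
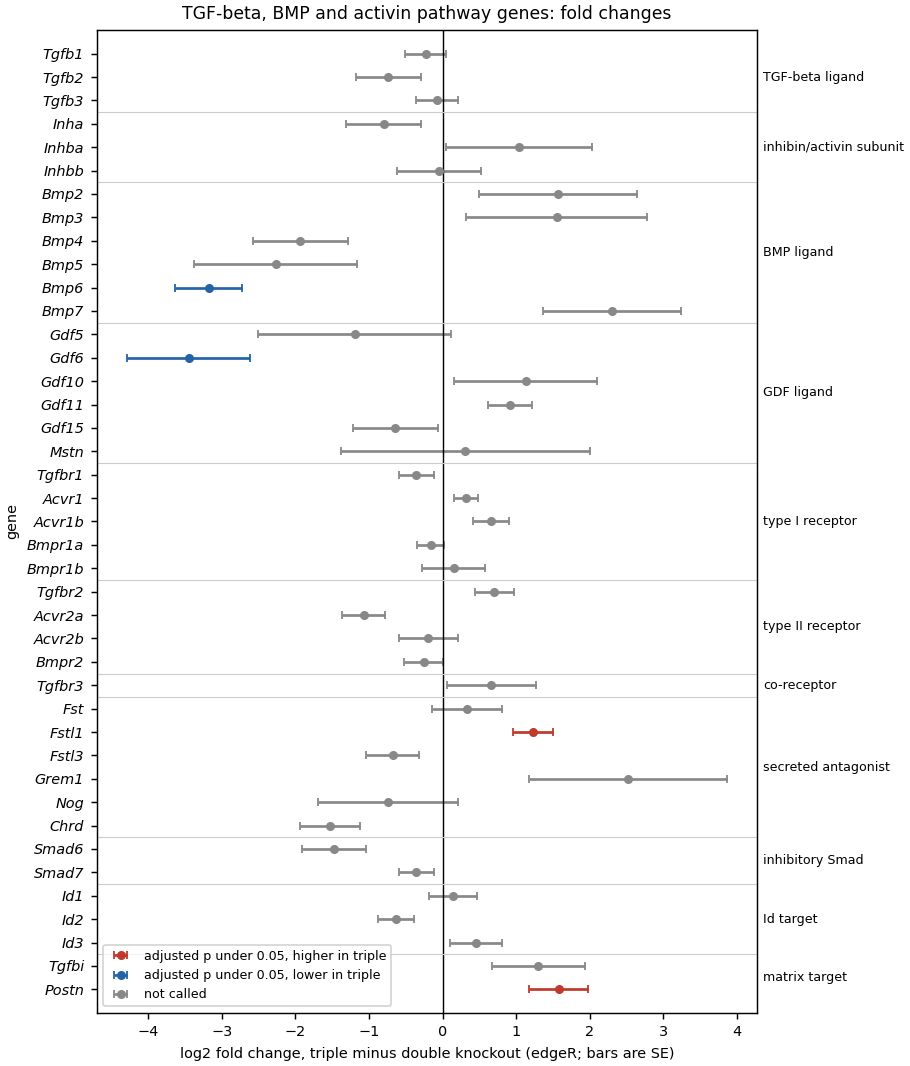
Fold change of each of the 41 genes, triple minus double (x axis, log2 scale; points are edgeR estimates and bars 1 standard error), in order of role (y axis). Coloured points are the called genes, Bmp6 and Gdf6 on the left at -3.18 and -3.45 and Fstl1 and Postn on the right at 1.23 and 1.58; the other 37 are grey.

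Start regions are shown for 3 of the genes called in the fit of all 8 samples, Bmp6, Fstl1 and Postn. RefSeq (GRCm38.p6) gave a window of 250 bases before the start for 30 of the 41 genes. In the Bmp6 window G and C made up 68.8% with 22 CpG, and in the Fstl1 window 68% with 16 CpG. The Postn window next to the counted gene's start held 52% with 4 CpG. These windows sit at unlike places, since the Bmp6 window lies inside the counted gene and the Fstl1 window partly so. The 68 Fstl1 bases before the counted start held 52.9% G and C, so the windows do not compare the genes' composition. Printed are 30 bases of the Bmp6 window at chr13:38345585-38345614, the 68 bases of the Fstl1 window before the counted gene's start at chr16:37776805-37776872, and the Postn window at chr3:54360857-54361106, all on the + strand. Capitals mark CAGAC, the Smad box, in Bmp6 and TATAAA, the TATA box, in Postn.
Bmp6: agcgcacgtgtgCAGACtgcgagtgaccgt
Fstl1: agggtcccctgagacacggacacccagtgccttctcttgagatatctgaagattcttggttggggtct
Postn: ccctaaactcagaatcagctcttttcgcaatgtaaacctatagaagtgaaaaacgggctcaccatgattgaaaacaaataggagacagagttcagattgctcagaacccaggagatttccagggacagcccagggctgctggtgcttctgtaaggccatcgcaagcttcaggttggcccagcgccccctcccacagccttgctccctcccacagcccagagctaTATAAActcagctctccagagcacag
The Bmp6 match lay 119 bases before the RefSeq start at position 38345716, but inside the counted Bmp6 gene, which starts upstream at position 38345107, and the Postn TATAAA 26 bases before it, while the Fstl1 window held none of the motifs searched. Over both strands, CAGAC was found for 17 of the 30 genes (56.7%) and for 45.8% of 27025 genes with windows. Postn is among the 17 through another RefSeq window, not printed, that begins at position 54359017. There CAGAC lay 191 bases before that window's start site. The GC-rich core GGCGCC, known from BMP-responsive elements, was found for 7 of 30 (23.3%, against 10.8%), and TATAAA for 7 of 30 (23.3%, against 14.3%). These matches describe letters in the windows and do not show that a factor binds there.

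The 3 TGF-beta ligands, which signal through Tgfbr1 and Tgfbr2, were not called. Tgfb2, the ligand of smallest p, stood at 65.9 and 33.2 CPM in the double group (samples 1 and 2), against 19.7, 47.1, 18.7, 21.2, 24.6 and 46.9 CPM in triple samples 1 to 6. The groups overlapped, since triple samples 2 and 6 lay above double sample 2. Its log2 fold change was -0.74 ± 0.44 (SE), with an adjusted p of 0.3 by edgeR and an exact 2-sided permutation p of 0.25. It was -0.16 without double sample 1 and -1.13 without double sample 2. Tgfb1 ranged from 77.7 to 149.7 CPM over all 8 samples (log2 fold change -0.23) and Tgfb3 from 130.3 to 248 CPM (-0.07).

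The inhibin and activin subunits were not called either. Inha, the alpha subunit found in inhibins, was at 18.4 and 3.57 CPM in the double group, against 5.31, 6.21, 6.84, 6.6, 4.53 and 8.4 CPM in the triple samples. Double sample 1 was the highest and double sample 2 the lowest of the 8, so the groups overlapped. The log2 fold change was -0.80 ± 0.51 (SE; edgeR adjusted p = 0.33, exact permutation p = 0.5) and 0.81 without double sample 1. Inhba, the subunit of activin A, spread widely within the triple group, from 34.3 to 335 CPM, against 14.5 and 118 CPM in the double samples (log2 fold change 1.04, but 0.20 without double sample 1 and 3.25 without double sample 2). Inhbb, the subunit of activin B, ranged from 26.2 to 129 CPM in the triple samples around the double values of 63.8 and 65.1 CPM.

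Bmp6 (chr13:38345107-38500302, + strand, GRCm38) showed the smallest p of the 41 genes. It stood at 67.1 CPM in double sample 1 and 14.8 CPM in double sample 2, against 3.68, 3.42, 4.91, 3.85, 4.78 and 6.47 CPM in triple samples 1 to 6. All 6 triple samples lay below both double samples, and the double samples differed from each other far more than the triple samples did. The mean was 41 ± 37 CPM (SD, n = 2) in the double group and 4.52 ± 1.13 CPM (SD, n = 6) in the triple group. The log2 fold change was -3.18 ± 0.45 (SE; edgeR adjusted p = 0.00713), 9.06-fold higher in the double samples, and the exact 2-sided permutation p was 0.0357, the smallest that 28 splits of 2 against 6 allow. Without double sample 1 the log2 fold change was -1.72 and the call was lost. Without double sample 2 it was -3.88. Among exons of Bmp6, 224 bases are shared with Txndc5, and whether counting used strand is not given in the sources used here. Other genes share exon bases too, most of all Bmp5 (1878 with Gm26903), Fstl3 (1157 with Prss57) and Gdf5 (936 with Gm15557).

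Gdf6 (chr4:9844372-9862345, + strand) was called on the level of 1 sample. It was at 65.1 CPM in double sample 1, at 3.54 CPM in double sample 2, against 0.996, 4.5, 3.88, 4.38, 1.27 and 3.8 CPM in the triple samples. Double sample 2 lay inside the triple range, so the groups overlapped. The means were 34.3 ± 43.6 CPM (SD, n = 2) and 3.14 ± 1.58 CPM (SD, n = 6), the log2 fold change was -3.45 ± 0.84 (SE; edgeR adjusted p = 0.0414), and the exact permutation p was 0.179. Without double sample 1 the log2 fold change was -0.17 (adjusted p = 0.954). Leaving out any triple sample gave adjusted p of 0.0637 to 0.0773.

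Other BMP ligands were not called. Bmp4, a ligand of early mesoderm, was higher in both double samples (13.7 and 10.6 CPM) than in any triple sample (1.05 to 5.51 CPM). Its log2 fold change was -1.93, with an adjusted p of 0.0993 by edgeR and 0.0367 by DESeq2. Bmp7, a kidney and eye morphogen, gave the opposite order at very low level, with 1 and 21 reads in the double samples and 31 to 100 reads in the triple samples (log2 fold change 2.30, adjusted p = 0.154). Its log2 fold change was 1.38 without double sample 1. It was 5.50 without double sample 2 and 5.85 within code SN930, and Bmp7 was called in both. DESeq2 also called Bmp7 (adjusted p = 0.0319). Bmp5 stood at 6.19 and 2.92 CPM in the double group and between 0.0642 and 3.42 CPM in the triple samples (-2.27, adjusted p = 0.218). Bmp2 and Bmp3 varied within the triple group. Bmp2 was at 34.6, 26.5 and 17.4 CPM in triple samples 1, 4 and 5 and at 3.69 to 4.75 CPM in triple samples 2, 3 and 6, against 8.14 and 2.06 CPM in the double samples. Bmp3 reached 19.3 CPM in triple sample 4 and stayed between 0.364 and 5.04 CPM in the other 7 samples.

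Among the other GDF ligands, Gdf11, a close relative of myostatin, was above both double samples (11.3 and 16.5 CPM) in all 6 triple samples (18.9 to 32.7 CPM). Its log2 fold change was 0.92 (edgeR adjusted p = 0.0889, DESeq2 adjusted p = 0.0234), 0.66 without double sample 1 and 1.23 without double sample 2. Gdf5, a joint ligand, was at 9.76 CPM in double sample 1 and 9.5 CPM in triple sample 2, and at 0.317 to 1.37 CPM in the other 6 samples. Mstn, myostatin, which limits muscle growth, was likewise highest in triple sample 2 (3.8 CPM) and double sample 1 (1.7 CPM). It had 0 reads in triple sample 4, which allows up to 0.0995 CPM by a limit of 3 counts, covering counting error only. The same samples had the highest summed CPM of 10 adult skeletal muscle markers, 67270 in double sample 1 and 12224 in triple sample 2, against 133 to 5660 in the other 6 samples, and the part of these markers in the levels of Gdf5, Mstn and Nog was not tested. Gdf10 was lowest in double sample 2 (0.433 CPM) and ranged from 1.86 to 13.3 CPM in the other 7 samples (log2 fold change 1.13). That value was 4.06 without double sample 1 and 0.24 without double sample 2. Gdf15, a stress-induced ligand, stayed between 0.602 and 2.7 CPM in all samples.

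**Figure D2:**
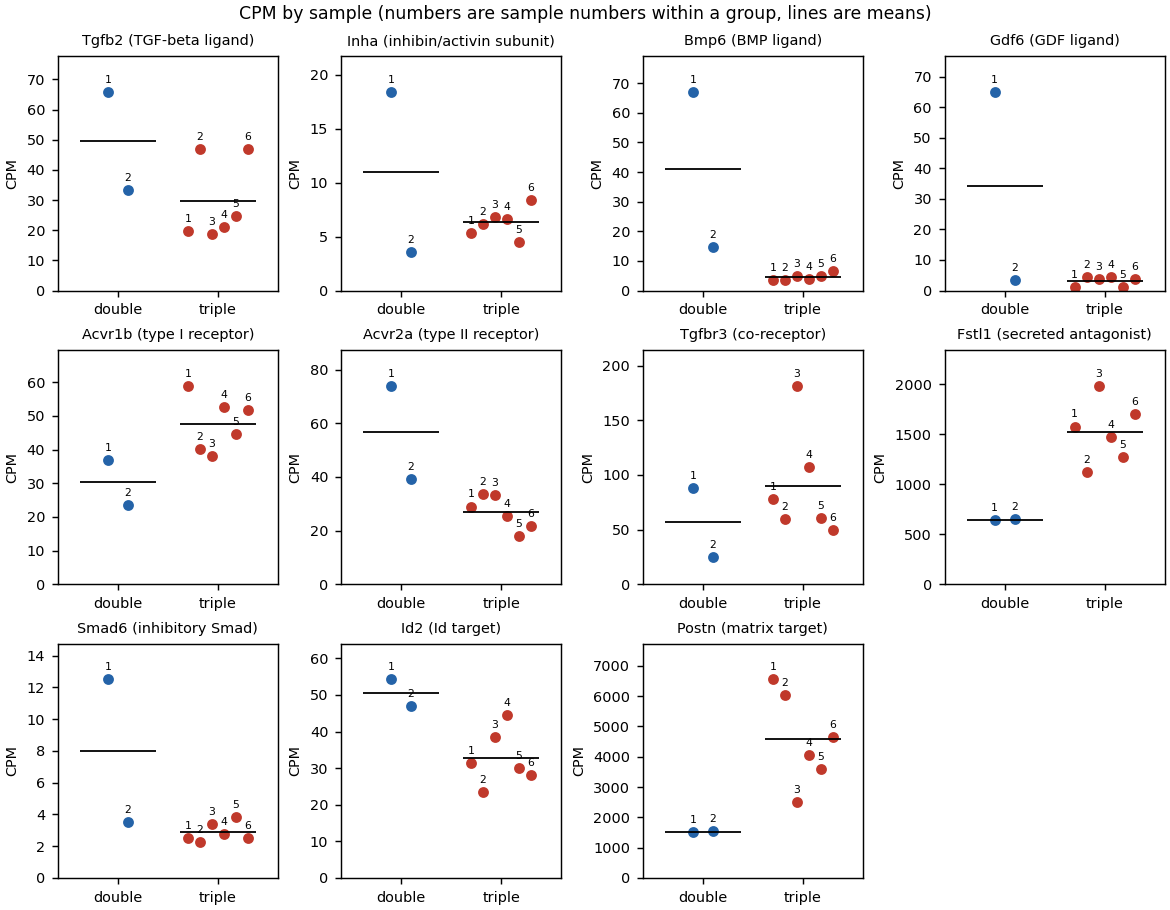
CPM of 11 genes (y axes, linear from 0) in the 2 double samples (blue) and the 6 triple samples (red), with sample numbers above the points and group means as lines. Bmp6, Fstl1, Postn, Acvr1b, Acvr2a and Id2 have groups that do not overlap, while in Gdf6, Smad6 and Inha double sample 1 stands above all the others and double sample 2 lies beside the triple samples.

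None of the 10 receptors was called by edgeR (8.35% of all genes) and 1, Acvr2a, was by DESeq2 (19.2% of all genes). With edgeR 3 of 10 had an unadjusted p under 0.05 (30%, against 27.9% of all genes). The groups did not overlap for 3 of 10 (30%, against 24.1%), and the median log2 fold change was -0.01. Acvr1b, the type I receptor ALK4 for activin, was at 36.9 and 23.6 CPM in the double group, against 59, 40.1, 38.1, 52.7, 44.8 and 51.8 CPM in the triple samples. The triple samples lay above both double samples, triple sample 3 only just so. The log2 fold change was 0.66 ± 0.25 (SE; edgeR adjusted p = 0.131, exact permutation p = 0.0357), 1.005 without double sample 1 and 0.39 without double sample 2. The other type I receptors had log2 fold changes of -0.35 (Tgfbr1), 0.31 (Acvr1), -0.16 (Bmpr1a) and 0.15 (Bmpr1b).

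Acvr2a, a type II receptor for activins and several BMPs, was lower in the triple samples without being called. It was at 74.1 and 39.3 CPM in the double group, against 29, 33.8, 33.3, 25.6, 18 and 21.8 CPM in the triple samples. All triple samples lay below the double samples, double sample 1 being far the highest. The log2 fold change was -1.07 ± 0.30 (SE; edgeR adjusted p = 0.0595, exact permutation p = 0.0357). It was -0.55 without double sample 1 and -1.44 (adjusted p = 0.0125) without double sample 2, and 446 of its exon bases are shared with Orc4. Tgfbr2, the type II receptor for TGF-beta, was at 374 and 513 CPM in the double group and 532 to 938 CPM in the triple samples (0.70, adjusted p = 0.133). Acvr2b and Bmpr2 had log2 fold changes of -0.19 and -0.26. Tgfbr3, the co-receptor betaglycan, was at 88.4 and 24.8 CPM in the double group, against 78.3, 59.8, 182, 108, 60.3 and 49.5 CPM in the triple samples. Its groups overlapped, with triple sample 3 the highest and double sample 2 the lowest (log2 fold change 0.66 ± 0.61 SE, edgeR adjusted p = 0.496, exact permutation p = 0.286). The log2 fold change was 1.85 without double sample 1 and 0.03 without double sample 2.

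Of the 6 secreted antagonists, Fstl1 (chr16:37776873-37836514, + strand) was called. It stood at 642 and 650.2 CPM in the double group, against 1576, 1125, 1985, 1469, 1267 and 1697 CPM in triple samples 1 to 6. The double samples were nearly equal and every triple sample was well above them. The means were 646 ± 5.53 CPM (SD, n = 2) and 1520 ± 308 CPM (SD, n = 6), a 2.35-fold difference (log2 fold change 1.23 ± 0.27, SE; edgeR adjusted p = 0.0312, exact permutation p = 0.0357). The log2 fold change was 1.22 without double sample 1, where the call was lost, and 1.26 without double sample 2. Leaving out triple sample 1, 4, 5 or 6 also ended the call, with adjusted p up to 0.0672.

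The other antagonists were not called. Chrd, chordin, which binds BMPs, was at 52.3 and 15 CPM in the double group and 7.87 to 15.8 CPM in the triple samples. Its log2 fold change was -1.53 (edgeR adjusted p = 0.053, DESeq2 adjusted p = 0.00992), -0.37 without double sample 1 and -2.15 without double sample 2. Grem1, gremlin 1, an antagonist of BMP2 and BMP4, was at 102 and 163 CPM in triple samples 1 and 4 and at 5.07 to 24.5 CPM in the other triple samples, against 8.38 and 10.5 CPM in the double samples. Triple samples 1 and 4 were also the highest of the 8 for Bmp2. Nog, noggin, which binds BMPs, was highest in the samples with the most adult muscle markers, with 7.69 CPM in double sample 1, 8.49 CPM in triple sample 2 and 0.597 to 3.14 CPM in the other 6. Fst, follistatin, which binds activin, ranged from 45.6 to 163 CPM in the triple samples around 118 and 48.6 CPM in the double samples. Fstl3, a follistatin relative, was highest in double sample 1 (55.5 CPM) and between 14.9 and 33.4 CPM elsewhere.

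**Figure D3:**
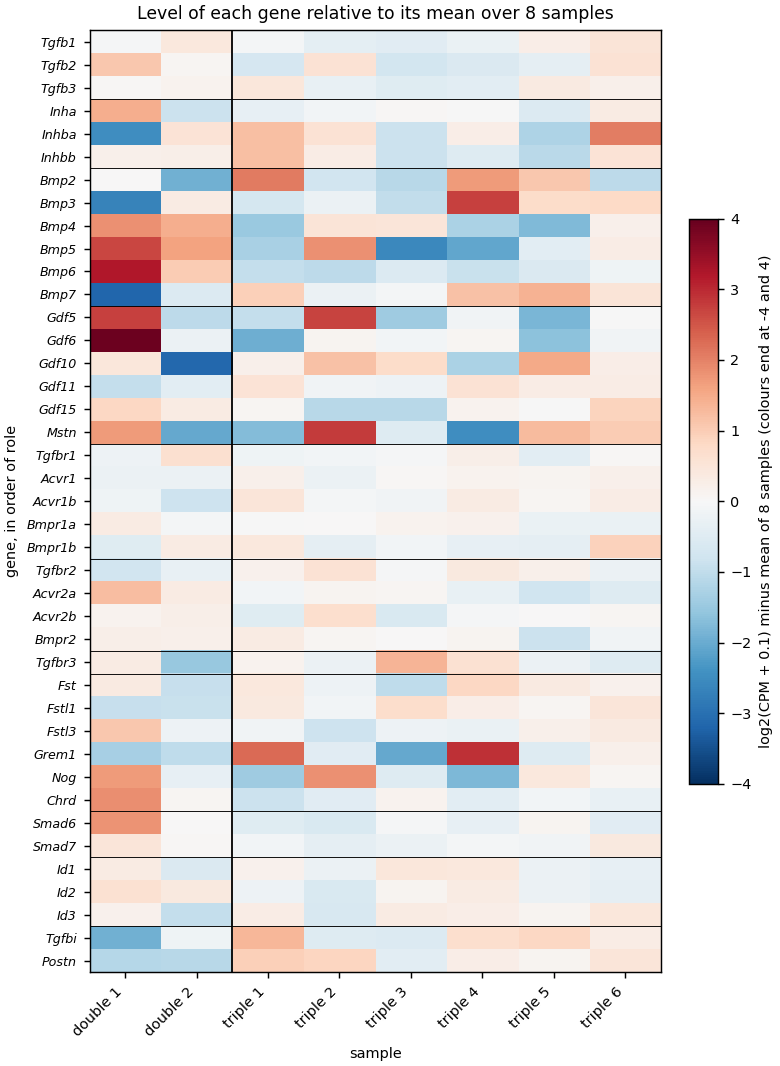
Level of each of the 41 genes (rows, in order of role) in each of the 8 samples (columns), as log2(CPM + 0.1) minus the gene's mean over the 8 samples; red is above and blue below that mean, and colours end at -4 and 4. Gdf5, Nog and Mstn are red in double sample 1 and triple sample 2, and Grem1 and Bmp2 are red in triple samples 1 and 4.

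The inhibitory Smads, which block receptor signalling, were not called. Smad6 was at 12.5 and 3.54 CPM in the double group, against 2.49, 2.28, 3.4, 2.75, 3.83 and 2.53 CPM in the triple samples. Double sample 1 alone was high, and triple sample 5 lay above double sample 2. The log2 fold change was -1.48 ± 0.44 (SE; edgeR adjusted p = 0.0721, exact permutation p = 0.0714). It was -0.31 without double sample 1 and -2.10 without double sample 2, and DESeq2 called Smad6 (adjusted p = 0.0159). Smad7 was at 34.1 and 25.5 CPM in the double group and 19 to 32.2 CPM in the triple samples (-0.36).

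The Id genes, BMP-induced inhibitors of basic helix-loop-helix factors, were not called. Id2 was at 54.3 and 47 CPM in the double group, against 31.4, 23.4, 38.6, 44.6, 30.2 and 28.1 CPM in the triple samples. The groups did not overlap, with triple sample 4 closest to the double samples. The log2 fold change was -0.63 ± 0.24 (SE; edgeR adjusted p = 0.135, exact permutation p = 0.0357). Id1 and Id3 had values of 0.14 and 0.46, and both were lowest in double sample 2 (22.3 and 48.1 CPM).

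Postn (chr3:54361109-54391037, + strand) was the most abundant of the 41 genes per exon length in both groups. It was at 1508 and 1555 CPM in the double group, against 6553, 6036, 2518, 4050, 3602 and 4659 CPM in triple samples 1 to 6. Every triple sample lay above the double samples, triple sample 3 least. The means were 1532 ± 33.5 CPM (SD, n = 2) and 4570 ± 1517 CPM (SD, n = 6), a 2.98-fold difference (log2 fold change 1.58 ± 0.41, SE; edgeR adjusted p = 0.0483, exact permutation p = 0.0357). The log2 fold change was 1.55 without double sample 1 and 1.62 without double sample 2, and either omission ended the call. Leaving out triple sample 1, 2, 4, 5 or 6 also ended the call, with adjusted p up to 0.0886. Tgfbi, a secreted matrix protein named for its induction by TGF-beta, was at 77.9 and 264 CPM in the double group and between 204 and 749 CPM in the triple samples (1.30, adjusted p = 0.216). The Tgfbi log2 fold change was 0.66 without double sample 1, 2.45 without double sample 2 and 2.57 within code SN930, where Tgfbi was called.

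On the scale of mean CPM per kilobase of exon, levels over the 41 genes spanned more than the changes did. Postn stood at 176 in the double and 525 in the triple group, and Fstl1 at 131.5 and 309. Tgfbi (45.3 and 112), Tgfbr2 (54.2 and 88.3), Id3 (42.9 and 58.9) and Tgfb3 (57.3 and 54.4) came next in the triple group. Bmp6 and Gdf6 were at 10.5 and 9.72 in the double group and at 1.16 and 0.888 in the triple group, so that Bmp6 ranked 16 of 41 in the double group and 32 of 41 in the triple group.

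**Figure D4:**
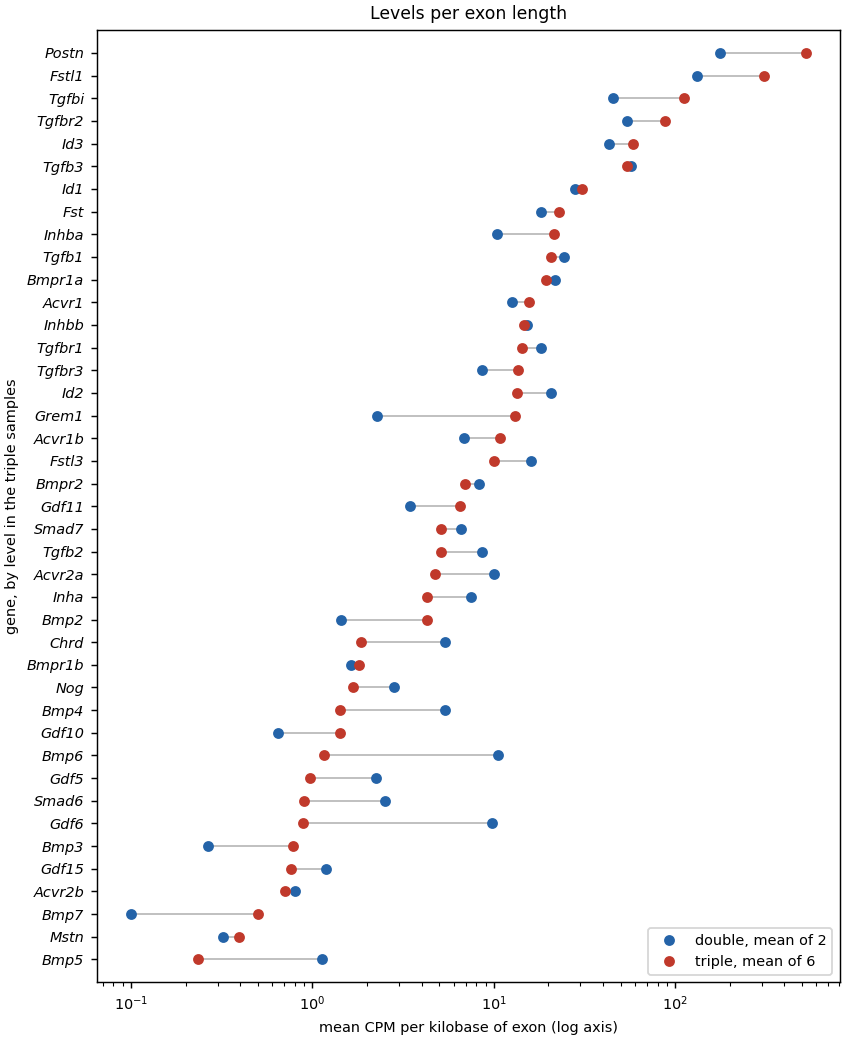
Mean CPM per kilobase of exon (x axis, log scale) of the 41 genes, ordered by their level in the triple group (y axis), with the mean of the 2 double samples in blue and of the 6 triple samples in red. Postn and Fstl1 are highest in both groups, and Bmp5, Mstn and Bmp7 lowest in the triple group.

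Marker genes of cell types were read in the same samples, and not every list separated the groups. The summed CPM of 12 embryonic myogenic markers was 4838 and 2007 in the double samples and 6.56 to 123 in the triple samples, with 10 of 12 called lower; 4 were called without double sample 1. For 10 adult skeletal muscle markers, 0 of 10 were called by edgeR, 4 of 10 had an unadjusted p under 0.05 and 3 of 10 were called by DESeq2. These values stand beside the fall of Bmp6 and the level of Gdf6, which was high only in double sample 1. The part of these markers in the levels of Bmp6 and Gdf6 was not tested. For 7 fibroblast markers the sums were 6800 and 8677 in the double samples and 14705 to 30221 in the triple samples, with 1 of 7, Pdgfra, called higher. The Pdgfra call was lost without double sample 1 (adjusted p = 0.141) and with the code as a term (0.0524). The collagen genes Col1a1 and Col3a1 made up most of these sums, with 3305 and 2794 CPM in double sample 1, and Pdgfrb and Thy1 had log2 fold changes of -0.50 and -0.03. The sums stand beside the rises of Fstl1 and Postn, which fibroblasts also express, and their part was not tested. Sums of 11 leukocyte markers were 806 and 1789 in the double samples and 1743 to 2617 in the triple samples (2 of 11 higher, Cd68 and Itgam). For 8 endothelial markers they were 408 and 290 against 202 to 467 (1 of 8 lower, Tek). The mesothelial sums were 347 and 1429 against 138 to 881, with 0 of 9 tested genes called by edgeR and 2 of 9 at an unadjusted p under 0.05. DESeq2 gave Wt1, Upk3b, Lrrn4, Krt7 and Krt19 no adjusted p and called none of the other mesothelial genes tested. Without double sample 1 the edgeR calls of Cd68, Itgam and Tek were lost. Tek, at 89.7 and 20.8 CPM in the double samples, went from a log2 fold change of -1.83 to -0.43. Of the mesothelial sums, Krt8 made up 799 CPM in double sample 2 and Upk3b 173 CPM in triple sample 3. Over all genes, 8.35% were called by edgeR, 19.2% were called by DESeq2 and 27.9% had an unadjusted p under 0.05. In bulk RNA, fewer cells of a type and less RNA per cell cannot be told apart.

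**Figure D5:**
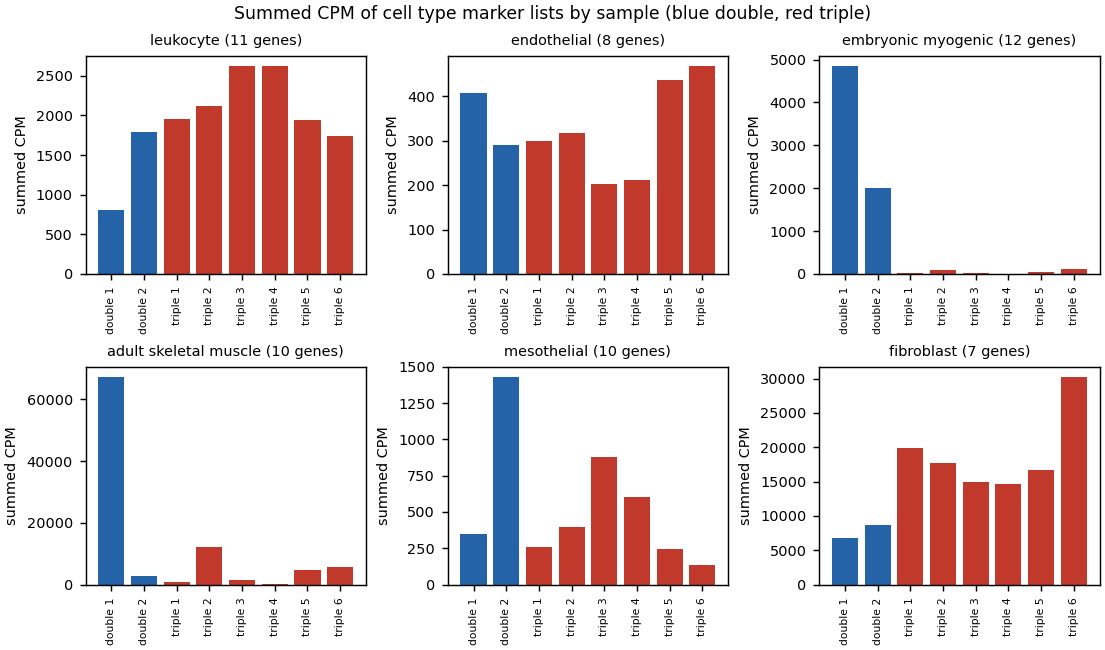
Summed CPM (y axes, linear from 0) of 6 lists of cell type markers in the 2 double samples (blue) and 6 triple samples (red). The embryonic myogenic sum is high only in the double samples, the adult muscle sum is highest in double sample 1 with triple sample 2 next, and the fibroblast sums of the triple samples lie above both double samples.

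Pathway genes outside the 41 were read from 6 further lists, of which 91 of 92 symbols were found and 79 tested. Of these, 5 rose and 2 fell, 8.86% against the 8.35% of all genes. Fewer were called without double sample 1 and more without double sample 2, as was so over all genes. Among 28 extracellular modulators 4 rose and 0 fell (14.3% called), beside 2.94% of all genes higher and 5.41% lower. Ltbp1, which tethers latent TGF-beta to the matrix, was at 168 and 128 CPM in the double group and 429 to 719 CPM in the triple samples (log2 fold change 2.00, adjusted p = 0.00791). Its relative Ltbp2 was at 82.1 and 58.3 against 174 to 447 CPM (1.76, adjusted p = 0.0397). Htra1, a secreted protease, was at 111 and 186 against 404 to 949 CPM (2.06, adjusted p = 0.0228), and Kcp, a chordin-like modulator of BMP, at 3.48 and 2.31 against 7.29 to 15.2 CPM (1.92, adjusted p = 0.0279).

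Among 8 further receptors and co-receptors, Rgma, a BMP co-receptor, rose from 66.2 and 74.6 CPM to 174 to 280 CPM (1.66, adjusted p = 0.00693). Rgma and Ltbp1 were the genes of these lists still called without double sample 1, with adjusted p of 0.0471 and 0.0434. Amhr2, the receptor of anti-Müllerian hormone, fell (-2.52, adjusted p = 0.0405), but its double values were 3.28 and 0.542 CPM and triple sample 2 had 0.57 CPM. Of 15 further target genes Junb, an AP-1 gene induced early by TGF-beta, fell from 251 and 163 CPM to 95.2 to 140 CPM (-0.91, adjusted p = 0.035). None of 6 Smads, 15 intracellular modulators and 7 other ligands was called by edgeR. In these lists 0, 5 and 1 had an unadjusted p under 0.05 (27.9% of all genes), and 0, 2 and 1 were called by DESeq2 (19.2% of all genes). Their genes of smallest p were Smad1 (-0.43), Skil, a Smad co-repressor (-0.50), and Bmp8a (-3.01, adjusted p = 0.0561).

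The genes whose log2 CPM followed Bmp6 most closely over the 8 samples were Dcx, 2310043L19Rik, Mindy1, Ibsp and Gm5422, with Pearson's r of 0.989 to 0.995 among 17708 genes compared. This is a description without a test, over samples that include double sample 1. Each of the 5 was highest in double sample 1 and next in double sample 2, as Bmp6 was: Dcx, the microtubule protein doublecortin, was at 96.1 and 3.68 CPM in the double group, against no more than 0.2 CPM in the triple samples.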

How the data were processed

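RNA-seq of 8 samples (2 double, 6 triple) was read from whole-number gene counts deposited by the authors; the submitters' processing notes name HTSeq, DESeq2, mm10 and GRCm38, and the strand setting is not given in the sources used here. Groups came from the genotype label. edgeR 4.0.16 (R 4.3.3) with its expression filter, TMM scaling, quasi-likelihood tests and Benjamini-Hochberg adjustment was fitted over 17709 genes, and tested on simulated data. Levels are CPM, and log2 CPM used a prior count of 2. Exact 2-sided permutation tests used the 28 splits. Exon lengths came from GENCODE M21, whose coordinates matched the counted genes for 38 of 41 genes. Every pair of samples differed by more than counting noise. Alternatives were DESeq2 1.42.0, limma-voom (limma 3.58.1) with and without sample weights, other scalings and filters, the description code as a term and within codes, and leaving out each sample. The 41 genes and all lists were chosen with earlier results of these data known. Named in full were called genes and, in each role class without one, the gene of smallest p; of other lists, up to 4 called genes or the 1 of smallest p; and the 5 genes most like Bmp6.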

Additional observations from a re-analysis of the deposited data

Results flagged for a closer look

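In 3 of the 41 genes 1 triple sample lay far from the other 5, by the ratio of its gap to the whole range of log2 CPM (limit 0.625 for 6 samples); chance gives about 1 in 20 such groups. Acvr1, a type I receptor for BMPs, was at 60.9 CPM in triple sample 2 and at 74.7 to 82.1 CPM in the other triple samples (ratio 0.684), with 61.3 and 60.8 CPM in the double samples. Id3 was at 60.1 CPM in triple sample 2 and at 101 to 127 CPM in the others (ratio 0.69). Smad7 was at 32.2 CPM in triple sample 6 and at 19 to 23.1 CPM in the others (ratio 0.629).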

How the results depend on the processing

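No paired analysis was possible because the replicate numbers were given in sample order and pair nothing. Calls over all genes numbered 3380 with DESeq2, 99 with limma-voom and sample weights, 962 with the description code as a term, 1 within the other codes and 315 to 5579 with 1 sample left out, beside 1478. For the 41 genes these counts were 10, 0, 1, 0 and 0 to 10, beside 4, and for the other pathway genes 24 (DESeq2), 0 (sample weights), 0 (other codes) and 2 to 27 (1 sample left out, over the genes each fit tested, 80 without double sample 1 and 81 without double sample 2), beside 7 of 79. With sample weights 4 of the 41, and within the other codes 6, had an unadjusted p under 0.05. Code SN930 holds double sample 1 with triple samples 4, 5 and 6, and the other codes double sample 2 with triple samples 1, 2 and 3, so code and double sample cannot be told apart within codes, where the lone double sample is assumed to vary like the triple samples. The median log2 fold change was -0.27 within SN930, 0.11 within the other codes and -0.17 to 0.20 with 1 sample left out. Bmp6 was -3.72 (adjusted p = 0.0303) within SN930 and -1.90 (0.197) within the other codes, Gdf6 -4.35 (0.0371) and -0.18 (0.951), Fstl1 1.22 (0.0795) and 1.25 (0.346), Postn 1.46 (0.0655) and 1.68 (0.428). With the code as a term Bmp6 alone of the 41 was called. Postn had an adjusted p of 0.0506 with RLE scaling. Over 41 genes and 19 settings, 694 fold changes kept direction and side of the threshold, 35 lost the call, 18 gained it and 32 changed sign. All 35 losses fell on the 4 called genes, the only ones that could lose a call. Signs changed within SN930 for Tgfb1 (0.27), Tgfb3 (0.054), Mstn (-1.14), Tgfbr1 (0.18), Tgfbr3 (-0.27) and Id1 (-0.31), within the other codes for Inha (0.77), Inhba (-0.026), Inhbb (0.20), Bmp3 (-0.97), Gdf5 (2.53), Bmpr1a (0.11), Bmpr1b (-0.31) and Nog (0.98), and with upper-quartile scaling for Inhbb (0.013). With 1 sample left out, fold changes crossed 0 for Tgfb1 (-0.45 to 0.037), Tgfb3 (-0.18 to 0.0067), Inha (-1.53 to 0.81), Inhbb (-0.39 to 0.11), Gdf5 (-2.67 to 1.89), Mstn (-0.72 to 4.75), Tgfbr1 (-0.72 to 0.14), Bmpr1a (-0.33 to 0.040), Bmpr1b (-0.21 to 0.63), Fst (-0.15 to 1.10), Fstl3 (-1.16 to 0.081), Nog (-1.47 to 0.63) and Id1 (-0.23 to 0.67). The cause was not tested. 2 double samples limit every comparison, and no exact p can fall below 0.0357.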
